A study of Mus musculus with 18 samples.

Results

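The genotype difference in the early injury response was measured as an interaction: the change of each probe set by 12 h after muscle injury in wild type satellite cells, minus the same change in satellite cells lacking syndecan-4. It rests on 11 of the 18 arrays of the series, with probe sets that moved in opposite directions in the 2 genotypes described first. The wild type animals were C57Bl/6 x DBA2 females (B6D2F1/J), and the Sdc4-/- animals were C57Bl/6 females with a homozygous, constitutive deletion of Sdc4, so that strain and genotype differ together and cannot be told apart. The labels give every sample an age of 3 to 6 months. Cells came from the tibialis anterior, either uninjured or 12 h after injection of 1.2% barium chloride, which kills muscle fibres, and were sorted for syndecan-3 on the cell surface. The 11 arrays were 2 wild type uninjured, 3 wild type 12 h, 3 Sdc4-/- uninjured and 3 Sdc4-/- 12 h arrays. One wild type uninjured array, replicate 3, was left out, being taken as the array that the study removed, which its text does not number. The 48 h arrays of both genotypes entered the fit only to estimate the spread. The labels do not say whether replicates came from separate animals, so that p-values measure the spread between these samples, which may be technical.

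Satellite cells are the stem cells of adult skeletal muscle. They lie quiescent under the basal lamina of the fibre, carry syndecan-3 and syndecan-4, and enter the cell cycle when the fibre is damaged. Syndecan-4 is a transmembrane heparan sulfate proteoglycan that binds growth factors such as FGF2 and HGF, presents them to their receptors and takes part in focal adhesion and protein kinase C signalling. Early after injury, muscle also fills with neutrophils and then macrophages, and interleukin 6 and colony stimulating factor 1 are among the signals exchanged between these cells and muscle cells.

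The values are log2 GCRMA signals of Affymetrix probe sets, on which unexpressed probe sets lie at about 2 to 3. A probe set was called when its adjusted p was under 0.05 in a limma fit with Benjamini-Hochberg adjustment over all 45101 probe sets. "Rose" and "fell" are used for called changes. The interaction is wild type change minus Sdc4-/- change, so that a negative value means that the wild type change was the lower. Of the 45101 probe sets 5002 (11.1%) were called in the interaction, 3029 (6.72%) with the higher change in wild type cells and 1973 (4.37%) with the lower. Of the 2628 probe sets that rose in wild type cells alone and had a called interaction, only 151 reached a group mean of 5 at any of the 4 group and time points, whereas of the 1610 that fell in wild type cells alone 1155 did. Over the 6279 genes averaging 4 or more over the arrays (log2), 808 (12.9%) had the lower and 103 (1.64%) the higher change in wild type cells. The median interaction of these genes was -0.80, from a median change of -1.56 in wild type and -0.63 in Sdc4-/- cells, while over all probe sets it was 0.15.

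The arrays of the contrast differed in ways that bear on every value below. Wild type 12 h arrays had 3440 ± 578 probe sets above a log2 value of 5 (SD, n = 3), against 7416 ± 288 (n = 2) in wild type uninjured cells, 7608 ± 408 (n = 3) in Sdc4-/- uninjured cells and 5335 ± 246 (n = 3) in Sdc4-/- 12 h cells. The 18 hybridization-control probe sets, which read transcripts spiked in at the hybridization step, averaged 13.95 ± 0.38 on the wild type 12 h arrays, against 8.40 ± 0.76, 10.08 ± 0.31 and 10.90 ± 1.33 on the other 3 groups in the same order. The wild type 12 h arrays were thus the lowest in probe sets above background and the highest in hybridization controls, with no overlap with the other 8 arrays. The 3′ probe set for beta-actin read 3.98 on wild type 12 h replicate 2 and 8.37 on replicate 3, and 11.57 to 12.93 on the other 9 arrays. The left-out uninjured array had a hybridization-control mean of 12.80. With the hybridization-control mean as a covariate in the fit 280 probe sets were called in place of 5002, and with the left-out array added 592 were. In bulk samples fewer cells of a type and less RNA per cell cannot be told apart, and the part of array quality in the results below was not tested beyond these alternatives.

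**Figure D1:**
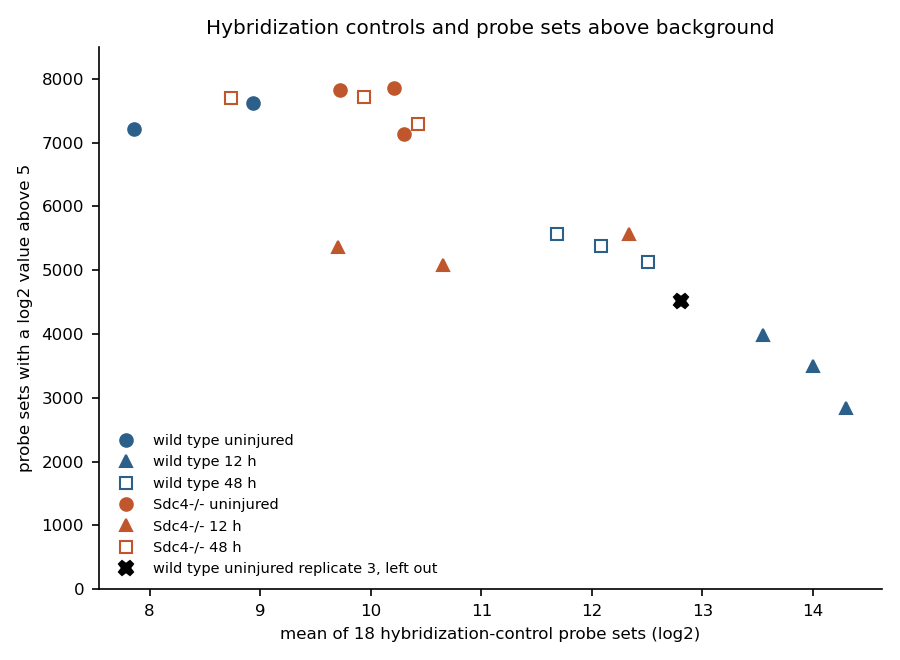
Each point is 1 array. The x axis is the mean log2 value of the 18 hybridization-control probe sets and the y axis the number of probe sets with a log2 value above 5; colour marks genotype, shape marks time, and the cross is the wild type uninjured array that was left out. The 3 wild type 12 h arrays lie at the lower right, between 2832 and 3982 probe sets.

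The targeted gene checks the labels only in part. One of the Sdc4 probe sets read 2.49 to 2.52 in Sdc4-/- uninjured and 2.41 to 2.56 in Sdc4-/- 12 h cells, the level of unexpressed probe sets. In wild type cells it read 2.36 and 3.57 when uninjured and 2.64, 2.53 and 3.64 at 12 h, so that the genotypes overlapped at both times. The probe set lay above this range in wild type cells at 48 h, with a mean of 6.56 against 2.55 in Sdc4-/- cells. The interaction of Sdc4 was -0.04 ± 0.67 (SE, adjusted p = 0.97) for this probe set and -1.12 ± 1.03 (adjusted p = 0.50) for the other. None of the 3 probe sets of Sdc3, the protein used in the sort, was called in the interaction.

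In 60 probe sets (0.133% of all) the message fell in wild type cells and rose in Sdc4-/- cells, with all 3 tests called, and in 27 (0.0599%) it rose in wild type and fell in Sdc4-/- cells. Leaving out 1 array at a time gave 35 to 96 and 14 to 64, all 18 arrays gave 9 and 9, the hybridization-control covariate 4 and 0, and Bonferroni adjustment 0 and 0. The 60 carry 55 gene symbols. Their median change was -2.50 in wild type and 1.96 in Sdc4-/- cells on the log2 scale, and their interactions ran from -1.15 to -9.49. In 53 of them a group mean reached 5, and in 45 the wild type 12 h mean lay under 5, near or within the range of unexpressed probe sets, so that the size of their fall in wild type cells is bounded by the background of the arrays. The 27 were smaller changes, with medians of 0.88 in wild type and -1.29 in Sdc4-/- cells, and a group mean reached 5 in only 12 of them. These directions chose the probe sets and are given as a description.

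**Figure D2:**
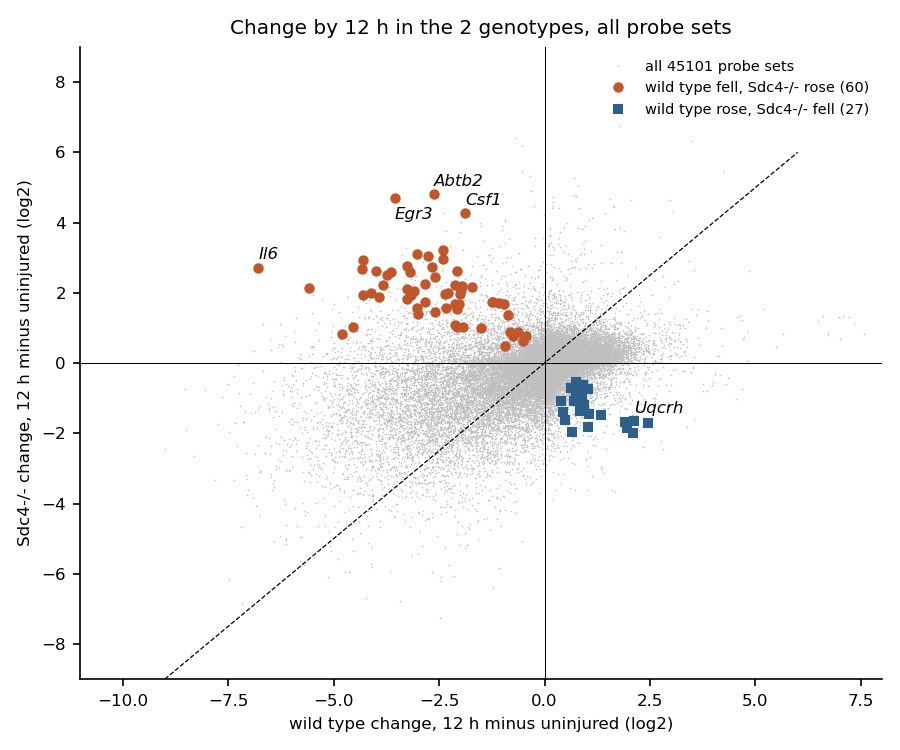
Each point is 1 probe set, placed by its log2 change by 12 h in wild type cells (x axis) and in Sdc4-/- cells (y axis); the dashed line marks equal changes. The 60 probe sets that fell in wild type and rose in Sdc4-/- cells lie at the upper left, led by Il6 at -6.78 and 2.71, and the 27 of the opposite kind lie close to the origin at the lower right.

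The 55 genes hold signalling molecules, transcription regulators and RNA-binding proteins, among others. How common such roles are among all genes was not counted. Sorted by what their products are known to do, after their values had been seen, 6 are secreted factors, receptors or ligands (Il6, Csf1, Fst, Csf2rb2, Plxnb1 and Dll4), with interactions from -9.49 to -1.50. A further 9 act in transcription or growth control (Egr3, Ets2, Id2, Foxn2, Bcor, Msl2, Nrip2, Ifrd1 and Btg1), from -8.25 to -2.94. A group of 5 acts in NF-kappaB and death signalling (Malt1, Tbk1, Tax1bp1, Cflar and Ier3), from -5.62 to -2.24. The RNA processing and translation genes were 8 (Hnrnpa2b1, Hnrnph1, Hnrnph2, Smndc1, Srpk3, Eif2s2, Eif4g2 and Gtpbp4), from -7.24 to -1.21, and 3 were noncoding RNAs (Neat1, Gas5 and Mir22hg), from -6.06 to -3.87. Membrane traffic, cytoskeleton and adhesion accounted for 11 (Snap23, Sar1a, Arf4, Tmed5, Chic2, Lasp1, Marcks, Marcksl1, Abi1, Erbin and Myoz1), from -7.71 to -1.15. The remaining 13 were Hspa5, Slc25a5, Gch1, Adcy5, Atp6v0d1, Rlim, Fnip1, Sik3, Lysmd3, Abtb2, Gm6377, Spty2d1 and Gins3, from -7.43 to -1.43. Names ending in _s or _x mark probe sets that also match other transcripts, and 15 of the 60 probe sets are of this kind.

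Il6, the cytokine made by injured muscle and by myeloid cells, had the lowest interaction among them. It read 10.64 and 10.01 in wild type uninjured cells and 4.52, 3.07 and 3.04 at 12 h. In Sdc4-/- cells it read 8.31, 7.88 and 6.53 when uninjured and 10.34, 10.19 and 10.31 at 12 h. No array of either genotype overlapped between the times and, at 12 h, every Sdc4-/- array lay far above every wild type array. Il6 fell by 6.78 ± 0.61 (SE, adjusted p = 1.4e-05) in wild type and rose by 2.71 ± 0.54 (adjusted p = 0.010) in Sdc4-/- cells, and the interaction was -9.49 ± 0.82 (limma, adjusted p = 5.3e-05). The left-out uninjured wild type array read 4.77, far below the 2 kept, and with it in the fit the interaction was -7.64 (adjusted p = 0.036). With the hybridization-control covariate it was -8.73 (adjusted p = 0.033).

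Csf1, the growth factor on which macrophages depend, read 4.67 and 4.90 in wild type uninjured cells and 3.25, 2.54 and 2.93 at 12 h. In Sdc4-/- cells it read 3.45, 3.52 and 3.51 when uninjured and 8.88, 7.98 and 6.40 at 12 h. The wild type values started near background, so that most of the interaction came from the Sdc4-/- arrays: the gene fell by 1.88 ± 0.57 (adjusted p = 0.022) in wild type and rose by 4.26 ± 0.51 (adjusted p = 0.00040) in Sdc4-/- cells. The interaction was -6.14 ± 0.76 (adjusted p = 0.00069), and with the hybridization-control covariate -3.68 (adjusted p = 0.23). Csf2rb2, a receptor subunit for interleukin 3, read 6.87 and 6.61 in wild type uninjured cells and 3.04, 2.51 and 2.36 at 12 h, against 6.05, 6.43 and 5.92 in Sdc4-/- uninjured cells and 8.71, 8.16 and 7.50 at 12 h. The uninjured levels of the 2 genotypes were close and the 12 h levels were far apart, with an interaction of -6.09 ± 0.45 (adjusted p = 1.8e-05). The left-out array read 2.36, and with it the interaction of Csf2rb2 was -4.64 (adjusted p = 0.089), no longer called.

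Among the transcription regulators Egr3, an immediate early zinc finger factor, read 7.77 and 7.83 in wild type uninjured cells and 5.65, 3.55 and 3.53 at 12 h. In Sdc4-/- cells it read 5.49, 5.10 and 4.01 when uninjured and 9.87, 9.72 and 9.11 at 12 h. The 2 genotypes thus exchanged their order between the times, with a change of -3.55 in wild type and 4.70 in Sdc4-/- cells and an interaction of -8.25 ± 0.76 (limma, adjusted p = 8.6e-05). Id2, which binds basic helix-loop-helix factors and blocks their activity, MyoD among them, was among the brighter of these genes outside the wild type 12 h arrays. It read 9.13 and 9.65 in wild type uninjured cells and 5.39, 4.64 and 5.14 at 12 h, and 9.04, 9.46 and 8.59 in Sdc4-/- uninjured cells and 12.39, 11.72 and 11.005 at 12 h. The uninjured arrays of the 2 genotypes overlapped and the 12 h arrays lay on either side of them, with an interaction of -7.01 ± 0.56 (adjusted p = 3.5e-05). Foxn2, a forkhead factor, read 6.85 and 6.57 in wild type uninjured cells and 2.69, 2.74 and 2.73 at 12 h, the level of unexpressed probe sets. In Sdc4-/- cells Foxn2 rose from 6.08, 6.34 and 5.26 to 9.65, 8.22 and 7.71, and its interaction was -6.63 ± 0.84 (adjusted p = 0.00073).

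Neat1, the noncoding RNA that builds nuclear paraspeckles, read 6.56 and 7.31 in wild type uninjured cells and 3.06, 3.35 and 2.90 at 12 h. In Sdc4-/- cells Neat1 read 6.87, 8.0 and 6.29 when uninjured and 9.32, 9.03 and 9.52 at 12 h, and its interaction was -6.06 ± 0.78 (adjusted p = 0.00080). Uninjured levels of the 2 genotypes overlapped and 12 h levels did not. Gtpbp4, a nucleolar GTPase of large ribosomal subunit assembly, had an interaction of -7.24 ± 0.61 (adjusted p = 4.7e-05), but 1 of its 2 other probe sets was called with the opposite sign, so that the gene's direction is uncertain. The other 2 genes named by the rule (the 10 largest interactions among opposite genes with a group mean of at least 5, where the opposite probe set is the brightest of the gene) were Abtb2, at -7.43 ± 0.74, and Gm6377, a predicted gene read by a probe set ending in _x, at -6.24 ± 1.01. Interactions of -7.71 for Lasp1, -6.25 for Ets2, -6.24 for Marcks and -6.13 for Marcksl1 came from probe sets that were not the brightest of their genes. In all 10 the arrays of the 2 times did not overlap in either genotype, which follows from how they were chosen, as 0.133% of all probe sets met the same 3 calls. The left-out uninjured wild type array read 3.49 for Egr3, 8.0 for Id2 and 4.09 for Neat1, below both kept arrays in each case. With it in the fit the interaction was still called in 9 of the 10 genes, and with the hybridization-control covariate in 5. The interactions of Abtb2, Gtpbp4, Id2 and Il6 were called under all 23 alternatives. All 3 calls with opposite signs, however, were kept by only 9 of the 60 probe sets with the left-out array and by 3 with the covariate.

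Further genes of the 55 followed the same course and are given as examples of their groups. Fst, the secreted activin and myostatin antagonist follistatin, read 6.50 and 6.79 in wild type uninjured cells and 3.77, 3.95 and 3.95 at 12 h, and 3.65, 5.48 and 4.51 in Sdc4-/- uninjured cells and 8.71, 8.06 and 6.04 at 12 h. Its interaction was -5.82 ± 0.85 (adjusted p = 0.0017). Cflar, which blocks caspase 8 activation, read 5.35 and 5.35, then 2.74, 3.41 and 2.70 in wild type cells, and 3.88, 6.28 and 5.70, then 9.24, 8.20 and 8.06 in Sdc4-/- cells. The uninjured genotypes overlapped for Cflar, and its interaction was -5.62 ± 0.80 (adjusted p = 0.0014). Ets2, an ETS family factor downstream of ERK, was opposite in 2 probe sets, with interactions of -6.25 ± 0.87 and -4.35 ± 0.78. Mir22hg, the host transcript of miR-22, had the smallest spread of these: it read 6.94 and 6.59, then 4.83, 5.32 and 5.0 in wild type cells, and 5.64, 5.94 and 5.81, then 8.33, 7.94 and 7.59 in Sdc4-/- cells, with an interaction of -3.87 ± 0.26 (adjusted p = 1.0e-05). Other probe sets of the same genes did not always follow. For 25 of the 55 genes a different probe set had the higher mean, and of those 25 probe sets 21 had an interaction below 0, 7 of them called, and 0 were called above 0. Counting every probe set, Gtpbp4, Rlim, Tmed5, Spty2d1 and Srpk3 each had 1 called with the opposite sign. For Hspa5, the endoplasmic reticulum chaperone BiP, the opposite probe set had an interaction of -4.06 ± 0.55, and the brightest one -1.02 (adjusted p = 0.50). Of the 2 other probe sets of Hspa5, 1 was called with the same sign and 0 with the opposite one.

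**Figure D3:**
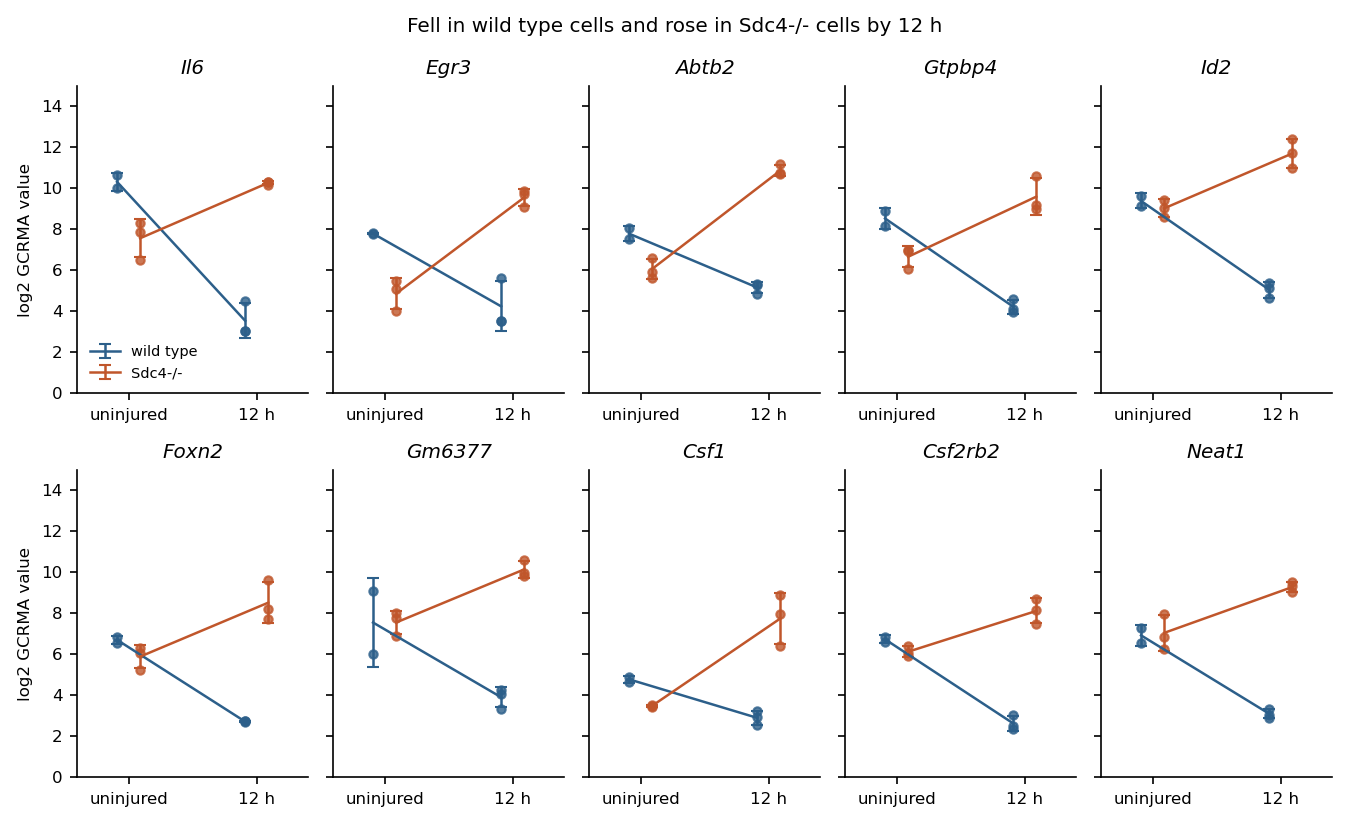
Log2 GCRMA values of the 10 genes with the largest opposite changes among those whose opposite probe set is also their brightest, by time (x axis) and genotype (colour). Points are arrays, lines join the group means and bars are SDs (n = 2 for wild type uninjured, otherwise 3). In each panel the Sdc4-/- 12 h arrays lie above the wild type 12 h arrays, while at the uninjured time the genotypes are close or in the other order.

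Promoter windows of 3 of these genes are shown because they carry a site for NF-kappaB, a factor known to drive cytokine genes. They run from 250 bases before to 50 bases after the annotated start (RefSeq, GRCm38.p6), read along the gene, with matches to the NF-kappaB site in capitals; in Il6 an AP-1 element (TGANTCA) is in capitals too, at the first bases. Il6 lies at chr5:30012864-30013163 on the plus strand, Csf1 at chr3:107760420-107760719 on the minus strand and Ier3, a stress-induced regulator of cell survival, at chr17:35821463-35821762 on the plus strand.
Il6: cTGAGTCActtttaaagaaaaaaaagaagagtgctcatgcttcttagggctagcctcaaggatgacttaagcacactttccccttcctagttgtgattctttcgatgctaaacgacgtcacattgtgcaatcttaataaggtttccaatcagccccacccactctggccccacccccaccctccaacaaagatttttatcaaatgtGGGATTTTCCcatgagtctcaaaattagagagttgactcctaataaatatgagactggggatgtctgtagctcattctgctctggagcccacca
Csf1: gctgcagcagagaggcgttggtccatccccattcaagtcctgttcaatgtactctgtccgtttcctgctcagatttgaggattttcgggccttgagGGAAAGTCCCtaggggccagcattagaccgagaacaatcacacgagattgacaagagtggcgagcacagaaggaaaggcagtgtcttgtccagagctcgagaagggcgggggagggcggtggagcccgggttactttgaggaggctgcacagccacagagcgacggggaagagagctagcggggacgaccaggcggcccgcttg
Ier3: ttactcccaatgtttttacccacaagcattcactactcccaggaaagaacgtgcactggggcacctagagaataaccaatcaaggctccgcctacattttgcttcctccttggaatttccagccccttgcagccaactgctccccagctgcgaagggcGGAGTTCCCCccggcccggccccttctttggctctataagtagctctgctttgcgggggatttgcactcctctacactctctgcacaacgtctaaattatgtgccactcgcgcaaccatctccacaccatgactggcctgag

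Windows were found for 46 of the 55 genes, 57 windows in all, and both strands were searched. The NF-kappaB site was present in 10 of the 57 windows (17.5%), those of Abi1 (2 windows), Csf1, Dll4, Gch1, Ier3, Il6, Msl2, Smndc1 and Tax1bp1, and in 8.46% of the 32851 windows of all genes. The AP-1 element was in 3.51% of the windows of the 55 genes against 7.81% of all, the EGR site (GCGNGGGCG) in 8.77% against 5.55%, the cyclic AMP response element (TGACGTCA) in 1.75% against 1.79% and the TATA box (TATAAA) in 7.02% against 13.6%. The CArG box, bound by serum response factor, was in none of the 57 and in 1.63% of all. Among the 16 windows found for 14 of the 20 genes of the other orientation none held the NF-kappaB site. No test was made of these shares, and a match describes letters, not binding.

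Further genes had a called interaction, a group mean of at least 5 and opposite changes of at least 1 log2 unit each way, without all 3 tests called. By the brightest probe set of each of the 18194 genes, 130 went down in wild type and up in Sdc4-/- cells by their estimates. The other orientation held 9. The 10 with the largest interactions were Efhd2, Odc1, Nab1, Steap4, Jmjd1c, Fndc3b, Ptpn12, Hif1a, Septin7 and Bcl2l11, with interactions from -7.78 to -6.16. Hif1a, the oxygen-regulated transcription factor, read 10.93 and 10.09 in wild type uninjured cells and 8.05, 3.63 and 9.71 at 12 h, and 8.89, 8.84 and 7.67 in Sdc4-/- uninjured cells and 11.31, 10.83 and 12.47 at 12 h. Replicate 2 lay far below the others at 12 h, neither genotype's own change was called, and the interaction of -6.45 ± 1.67 (adjusted p = 0.028) was called in 14 of 23 alternatives. Nab1, a corepressor of Egr factors, fell in wild type cells from 9.49 and 8.16 to 2.60, 2.61 and 2.46, whereas its change in Sdc4-/- cells was 1.11 ± 0.40 and not called (adjusted p = 0.14), with an interaction of -7.39 ± 0.61 (adjusted p = 4.0e-05). Odc1, the rate-limiting enzyme of polyamine synthesis, read 10.88 and 10.06 in wild type uninjured cells and 10.72, 4.43 and 5.83 at 12 h, so that the 2 times overlapped, and its change of 4.07 in Sdc4-/- cells was not called (adjusted p = 0.052). Bcl2l11, which encodes the cell death protein Bim, had an interaction of -6.16 ± 1.61 (adjusted p = 0.029), called in 13 of 23 alternatives.

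The opposite orientation gave fewer and smaller values. Of the 27 probe sets, 20 have a single symbol (Map3k1, Ttc3, Kdm5a, Mrpl9, Enox2, Rpl41, Car3, Snhg14, Dtwd2, BC064078, Klrb1b, Pomk, Cog1, Slc26a10, Zfp957, Kctd14, Ackr4, Uqcrh, Jakmip1 and Ap2a2), and 11 of the 27 end in _s or _x. The 5 genes named by the rule were Jakmip1, Uqcrh, Ackr4, Kctd14 and Mrpl9, each read by such a probe set. Uqcrh, the hinge protein of respiratory complex III, read 5.79 and 5.98 in wild type uninjured cells and 7.77, 7.69 and 8.55 at 12 h, and 7.07, 6.84 and 6.20 in Sdc4-/- uninjured cells and 5.54, 5.10 and 4.49 at 12 h. The times did not overlap in either genotype and the interaction was 3.78 ± 0.59 (adjusted p = 0.0025). Ackr4, an atypical chemokine receptor, had an interaction of 2.84 ± 0.50 (adjusted p = 0.0043), with a second probe set called the same way, and a wild type 12 h mean of only 4.19.

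Il6ra, the receptor of interleukin 6, had an interaction of the other sign from its ligand. It read 2.34 and 4.02 in wild type uninjured cells and 6.43, 6.44 and 5.39 at 12 h, and 7.82, 6.86 and 7.41 in Sdc4-/- uninjured cells and 6.32, 6.05 and 6.02 at 12 h. The gene rose by 2.90 ± 0.48 (adjusted p = 0.00073) in wild type cells, while its change of -1.23 ± 0.43 in Sdc4-/- cells was not called (adjusted p = 0.13). The interaction was 4.13 ± 0.65 (adjusted p = 0.0025), called in 21 of 23 alternatives. At 12 h the genotypes overlapped, and at the uninjured time they did not. Prcp, a lysosomal carboxypeptidase, had the largest interaction of this group at 4.39 ± 0.74 (adjusted p = 0.0036), with a called change of -3.01 in Sdc4-/- cells and an uncalled one of 1.37 in wild type cells.

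Of the 567 probe sets (1.26% of all) that rose in Sdc4-/- cells, 116 had a called interaction and no called change in wild type cells. These carried 94 gene symbols. Ptgs2, the inducible prostaglandin synthase, read 5.68 and 8.04 in wild type uninjured cells and 7.54, 4.83 and 7.24 at 12 h, and 7.52, 6.87 and 6.83 in Sdc4-/- uninjured cells and 11.82, 12.17 and 11.89 at 12 h. The wild type arrays of both times overlapped, and the 3 Sdc4-/- 12 h arrays lay above every other array of the contrast. The interaction of Ptgs2 was -5.21 ± 1.02 (adjusted p = 0.0074). Serpinb2, a plasminogen activator inhibitor of macrophages, had an interaction of -6.70 ± 1.39 (adjusted p = 0.0098), with 11.02, 10.03 and 9.87 in Sdc4-/- 12 h cells and no value above 5.29 elsewhere in the contrast. Gpr84, a receptor of myeloid cells for fatty acids, read 11.58, 9.64 and 8.91 in Sdc4-/- 12 h cells and at most 5.55 elsewhere, with an interaction of -5.68 ± 1.32 (adjusted p = 0.017). Sgms2 and Upp1 complete the 5 named by the rule, at -4.87 ± 1.19 and -4.72 ± 1.38, called in 18 and 8 of 23 alternatives.

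Falls in Sdc4-/- cells without a called change in wild type cells were seen in 272 probe sets with a called interaction, of which 108 reached a group mean of 5. Rcn3, a calcium-binding protein of the endoplasmic reticulum, read 7.35, 6.27 and 6.92 in Sdc4-/- uninjured cells and 3.75, 3.73 and 3.60 at 12 h, and 3.76 to 4.26 in all wild type arrays of the contrast. Its interaction was 3.48 ± 0.35 (adjusted p = 0.00016). Cd2, an adhesion molecule of T and NK cells, read 6.32, 5.57 and 5.78 in Sdc4-/- uninjured cells and at most 3.51 in the other groups, with an interaction of 2.74 ± 0.37 (adjusted p = 0.0010). Hal, histidine ammonia lyase, fell from 10.51, 10.40 and 10.05 to 2.64, 7.46 and 5.65, and its interaction of 4.53 ± 1.35 lay at the edge of the threshold (adjusted p = 0.050) and was called in 6 of 23 alternatives. For all 3 genes the uninjured genotypes did not overlap, and at 12 h those of Cd2 and Hal did.

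**Figure D4:**
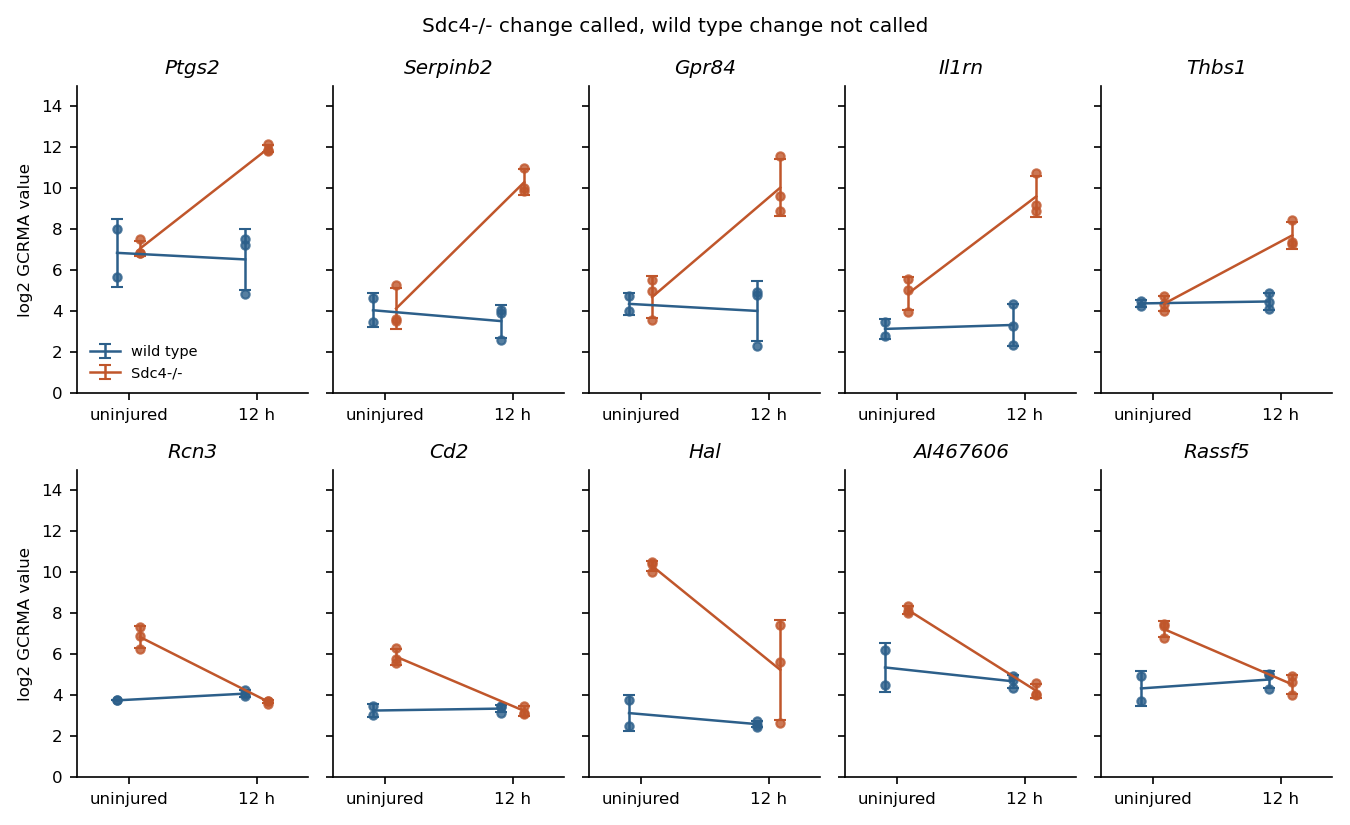
Log2 GCRMA values of 10 genes whose change was called in Sdc4-/- cells and not in wild type cells, drawn as in the panels of the opposite genes (points are arrays, lines join means, bars are SDs). The upper row rose in Sdc4-/- cells, as Ptgs2 did to 11.96 on average, and the lower row fell, as Rcn3 did to 3.69. The upper row shows Il1rn and Thbs1 in place of Sgms2 and Upp1, which the rule names.

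Probe sets with a fall in wild type cells, no called change in Sdc4-/- cells and a called interaction numbered 1610, 1155 of them with a group mean of at least 5. The 5 with the largest interactions were Grn, Vamp3, Selp, Eif4h and Mrpl39, from -7.77 to -7.17; Selp was called in 7 of 23 alternatives and the other 4 in 22 or 23. Grn, the lysosomal growth factor progranulin, read 12.54 and 12.62 in wild type uninjured cells and 6.65, 2.57 and 2.98 at 12 h, and between 12.41 and 13.50 in every Sdc4-/- array of the contrast. Vamp3, a membrane fusion protein of endosomes, read 11.83 and 10.71, then 3.19, 3.27 and 3.20, in wild type cells and 9.40 to 11.73 in Sdc4-/- cells. The low values all stood on the 3 arrays with the fewest probe sets above background. With the hybridization-control covariate 23 of the 131 called genes named by the rule remained called. Higher changes in wild type cells alone were led by Gm13238, Slc16a8, Tsks, 2610005L07Rik and Scaf4, from 5.40 to 3.39. Gm13238 was called in 11, 2610005L07Rik in 17, Scaf4 in 19 and Tsks in 21 of 23 alternatives, and Slc16a8 in 21 of 22. Tsks, a gene known from testis, read 5.47 and 5.02 in wild type uninjured cells and 10.41, 10.23 and 9.59 at 12 h. Slc16a8, a monocarboxylate transporter, went from 2.41 and 2.39 to 7.85, 6.57 and 6.95. The value of 2610005L07Rik turned to -0.50 with the hybridization-control covariate.

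Gene lists were compared by counts over 1 probe set a gene, against 1150 (6.32%) called lower and 1037 (5.70%) called higher among all 18194 genes. The wild type change of genes with a mean of at least 4 was a fall in 2801 (44.6%) and a rise in 210 (3.34%) of 6279, and in Sdc4-/- cells a fall in 932 (14.8%) and a rise in 142 (2.26%). Over all probe sets the wild type rises were 10501 (23.3%) and the falls 6420 (14.2%), and in Sdc4-/- cells the rises were 567 (1.26%) and the falls 2323 (5.15%). The median interaction of the 6279 genes depended on how arrays were scaled or adjusted. It was -0.51 with a further quantile normalization, -0.93 with a shift by the 75th percentile and -0.61 with the hybridization-control covariate. Centring arrays on the median of the probe sets averaging 4 or more gave -0.09, a value largely fixed by that centring. List medians moved with the alternatives too. The lists are read against these shifts.

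Immediate early genes, which growth factors and stress switch on before new protein is made, were lower in 7 of 20 and higher in 0, with a median interaction of -2.72 (range over the alternatives -3.21 to -1.75). All 7 were among the 18 members averaging 4 or more, beside 12.9% of all such genes called lower. The called members were Egr3, Ier3, Ier5, Nr4a1, Fosb, Egr1 and Atf3, of which Ier5 had 1 other probe set called with the opposite sign. Ier3 was one of the opposite genes: it read 10.22 and 9.48 in wild type uninjured cells and 9.04, 9.45 and 8.47 at 12 h, and 9.33, 9.55 and 8.99 in Sdc4-/- uninjured cells and 10.86, 10.64 and 10.52 at 12 h, with an interaction of -2.24 ± 0.41 (adjusted p = 0.0056), called in 20 of 23 alternatives. Every wild type 12 h value of Ier3 lay well above background, unlike those of most opposite genes. The Egr1 interaction was -3.40 (adjusted p = 0.028) and that of Nr4a1, an orphan nuclear receptor, -4.67 ± 1.17 (adjusted p = 0.025, called in 14 of 23 alternatives). Not all of the list moved so: Fos, Dusp1 and Junb had interactions of 0.21, -0.07 and 0.02, none called.

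Cytokines, chemokines and NF-kappaB targets were lower in 6 of 24 and higher in 0, with a median of -2.93. In wild type cells 5 of the 24 fell and 1 rose, and in Sdc4-/- cells 1 fell and 6 rose. All 6 called lower were among the 22 members averaging 4 or more. Of all such genes 12.9% were called lower, and their median interaction was -0.80. Beside Il6, Csf1 and Ptgs2 the called members were Il1rn, Cxcl5 and Ccl9. Il1rn, the interleukin 1 receptor antagonist, read 2.80 and 3.50, then 3.31, 2.35 and 4.36 in wild type cells, and 5.60, 5.03 and 3.99, then 10.78, 9.17 and 8.89 in Sdc4-/- cells, with an interaction of -4.54 ± 0.98 (adjusted p = 0.012). Cxcl5, a neutrophil attractant, had group means of 2.84 when uninjured and 4.61 at 12 h in wild type cells and of 2.90 and 9.64 in Sdc4-/- cells, with an interaction of -4.97 (adjusted p = 0.023). Cxcl2, another neutrophil attractant, rose by 2.62 in wild type cells and had an estimate of 2.36 in Sdc4-/- cells, so that its interaction was 0.27 (adjusted p = 0.89).

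Markers of satellite cells and quiescence were lower in 7 of 25 and higher in 0, with a median of -1.12. The called members were Pax7, Myf5, Cd34, Chodl, Vcam1, Spry1 and Megf10. Only 1 of the 7 averaged 4 or more over the arrays. With the left-out wild type uninjured array in the fit Pax7, Myf5, Cd34, Chodl and Spry1 were not called. Pax7, the transcription factor that defines satellite cells, read 5.15 and 4.59 in wild type uninjured cells and 2.79, 2.50 and 2.50 at 12 h, but 2.38 to 2.71 in every Sdc4-/- array of the contrast. Its interaction of -2.33 ± 0.20 (adjusted p = 5.4e-05) thus came from a single group above background, and the left-out wild type uninjured array read 2.47; with that array the interaction was not called (adjusted p = 0.27). Myf5 was alike, at 5.08 and 4.35 in wild type uninjured cells and 2.80 to 3.08 in Sdc4-/- cells, with an interaction of -1.25 ± 0.26 (adjusted p = 0.0097). Pax7 and Myf5 thus lay above background in wild type uninjured cells only, which does not hold for the whole list. Of the 25 markers, 10 had a group mean of at least 5 in wild type uninjured cells and 2 at 12 h. In Sdc4-/- cells 7 reached it when uninjured and 6 at 12 h. Myod1, the myogenic determination factor, lay between 2.29 and 3.05 in the 11 arrays. Vcam1, an adhesion molecule of satellite cells and of activated endothelium, was expressed in both genotypes: it read 7.33 and 7.08, then 3.14, 3.42 and 3.24 in wild type cells, and 5.73, 5.40 and 4.11, then 6.24, 7.13 and 7.54 in Sdc4-/- cells, with an interaction of -5.83 ± 0.90 (adjusted p = 0.0023).

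Markers of other cell types moved with the groups. The mean log2 value of 22 monocyte and macrophage markers ran from 5.16 to 8.50 over the wild type uninjured arrays, 3.92 to 4.51 at 12 h, 9.31 to 9.94 in Sdc4-/- uninjured cells and 7.41 to 8.69 at 12 h, and 2 of the 22 were called lower in the interaction. Csf1r, the receptor of Csf1 and a defining macrophage gene, read 10.02 and 12.86 in wild type uninjured cells and 2.23, 4.50 and 2.12 at 12 h, and 12.01 to 14.24 in Sdc4-/- cells, with an interaction of -6.59 ± 1.00 (adjusted p = 0.0021). The 15 neutrophil markers ran from 4.51 to 5.33, 3.37 to 5.47, 6.26 to 7.42 and 5.83 to 7.53 in the same order, with 1 called lower, Trem1 (-3.42 ± 1.00, adjusted p = 0.047, called in 7 of 23 alternatives). The 9 MHC class II genes averaged 5.12 to 7.06, 3.18 to 3.72, 7.77 to 8.60 and 5.72 to 6.52, with 1 called lower, H2-Aa (-6.55 ± 1.34, adjusted p = 0.0093). The 15 endothelial markers ran from 6.21 to 7.79, 3.94 to 4.83, 5.27 to 5.96 and 4.04 to 5.56 and the 13 pericyte markers from 6.24 to 7.10, 3.99 to 4.44, 4.50 to 6.01 and 3.64 to 3.96, with 0 called by limma in either list; at an unadjusted p under 0.05 the interaction was lower in 4 of each and higher in 1 pericyte marker. Of the 20 muscle fibre markers 0 were called and 1 was higher at an unadjusted p under 0.05. Fibro-adipogenic progenitor markers were lower in 2 of 14 (Lum and Cd34) and Schwann and tendon markers in 1 of 10 (Sox10). None of these called members averaged 4 or more. Lymphocyte markers were higher in 2 of 10 (Cd2 and Cd3g). Lum, Cd34, Sox10, Cd2 and Cd3g were called in 18, 20, 18, 20 and 16 of 22 alternatives. Over all 18194 genes 6.32% were called lower and 5.70% higher. Myeloid transcripts were thus higher on the Sdc4-/- arrays at both times, and their part in the interactions of Il6, Csf1, Ptgs2 and other genes that myeloid cells express was not tested.

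Genes that every cell uses are read against the 12.9% of genes with a mean of at least 4 that were called lower. Lysosomal genes were lower in 8 of 16 (median -3.00), spliceosome and splicing factors in 9 of 26 with 1 higher (median -2.37), proteasome subunits in 8 of 24 (median -1.98), oxidative phosphorylation genes in 7 of 25 with 1 higher (median -1.51) and chaperones in 5 of 24 (median -1.21). Ndufa1, a subunit of respiratory complex I, had group means of 10.86 when uninjured and 4.95 at 12 h in wild type cells and of 10.38 and 10.16 in Sdc4-/- cells, with an interaction of -5.69 ± 0.37 (adjusted p = 8.3e-06). Of the 25 oxidative phosphorylation genes 17 fell in wild type and 7 in Sdc4-/- cells, and of the 24 proteasome subunits 18 and 1. Zfp36, of a list of mRNA stability genes of which 4 of 27 were lower, an RNA-binding protein that destabilizes cytokine mRNA, read 9.32 and 9.03, then 5.12, 4.86 and 5.29 in wild type cells, and 8.08, 8.08 and 7.51, then 8.10, 8.10 and 7.78 in Sdc4-/- cells, with an interaction of -4.18 ± 0.29 (adjusted p = 1.0e-05). Hnrnpa2b1 and Atp6v0d1 belong to the opposite genes. Hnrnpa2b1, a splicing and RNA transport protein, read 11.49 and 10.46, then 7.32, 8.55 and 9.30 in wild type cells, and 9.32, 9.90 and 10.05, then 12.32, 11.63 and 12.66 in Sdc4-/- cells, with an interaction of -5.03 ± 0.69 (adjusted p = 0.0012), and 2 of its 3 other probe sets were called the same way. Atp6v0d1, a subunit of the proton pump of lysosomes, had an interaction of -3.11 ± 0.29 (adjusted p = 9.6e-05).

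Provisional matrix genes were lower in 4 of 20, and the called members were Fn1, Cd44, Thbs1 and Tnfaip6, the last called in 10 of 23 alternatives. Cd44, the hyaluronan receptor, read 5.92 and 6.61, then 5.97, 3.53 and 4.92 in wild type cells, and 6.83, 6.45 and 5.58, then 9.69, 9.17 and 8.41 in Sdc4-/- cells, with an interaction of -4.26 ± 0.79 (adjusted p = 0.0056). Fn1, the fibronectin to which syndecan-4 binds, fell from 7.87 and 9.63 to 4.80, 3.69 and 2.65 in wild type cells, and read 8.50 to 10.64 in Sdc4-/- cells, with an interaction of -5.42 ± 0.91 (adjusted p = 0.0036). Thbs1, thrombospondin 1, rose by 3.34 in Sdc4-/- cells and its wild type change was 0.09, with an interaction of -3.24 ± 0.71 (adjusted p = 0.013). Of 20 genes of syndecan-4 signalling and focal adhesion 3 were lower, the small GTPases Rhoa (-3.37 ± 0.98) and Rhog (-2.59 ± 0.63) and the actin-binding Synpo (-3.45 ± 0.93). That share of 15% stands beside 6.32% of all 18194 genes. All 3 were among the 15 members averaging 4 or more, beside 12.9% of all such genes, and no set test was made. Rhoa was called in 7, Rhog in 18 and Synpo in 14 of 23 alternatives. Collagens were lower in 3 of 17.

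Among growth control lists, FGF, HGF and ERK feedback genes were lower in 3 of 22 and higher in 1. The higher member was Fgf2, at 0.40 and called in 4 of 22 alternatives, and the lower were Fgfr3 (called in 18 of 22), Spry4 (13 of 23) and Spry1 (8 of 22), of which the Spry genes encode inhibitors of receptor tyrosine kinase signalling, and Spry4 had group means of 7.28 when uninjured and 4.54 at 12 h in wild type cells and of 4.57 and 6.02 in Sdc4-/- cells, with an interaction of -4.19 ± 1.10 (adjusted p = 0.030). Met, the HGF receptor, had a change of -0.25 in wild type and 2.15 in Sdc4-/- cells, and its interaction of -2.40 ± 1.32 was not called (adjusted p = 0.26). Genes of the G1 to S transition were lower in 3 of 25, the antiproliferative Tob1 (-5.63 ± 0.87), Tob2 (-2.24 ± 0.42) and Btg1 (-4.28 ± 0.81). Btg1 was one of the opposite genes, at group means of 11.65 when uninjured and 9.37 at 12 h in wild type cells and of 10.83 and 12.82 in Sdc4-/- cells, all far above background. Notch genes were lower in 2 of 16 (Numb and Dll4) and higher in 2 (Hes5 and Notch4). Dll4, Hes5 and Notch4 averaged under 4 over the arrays and were each called in 19 of 22 alternatives. They were not called with all 18 arrays, the hybridization-control covariate or values under 4 set to 4. The share called lower was 13.6% of the FGF, HGF and ERK feedback genes, 12% of the G1 to S genes and 12.5% of the Notch genes. Over all 18194 genes the share was 6.32%. Among the members averaging 4 or more, 1 of 8, 3 of 14 and 1 of 7 were lower in the same order. Of all genes averaging 4 or more 12.9% were, and no set test was made. Mitosis genes were higher in 3 of 19 and DNA replication genes in 2 of 23 with 1 lower, but Bub1, Cenpe and Kif20a had no value above 3.76 in the contrast, close to the level of unexpressed probe sets.

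**Figure D5:**
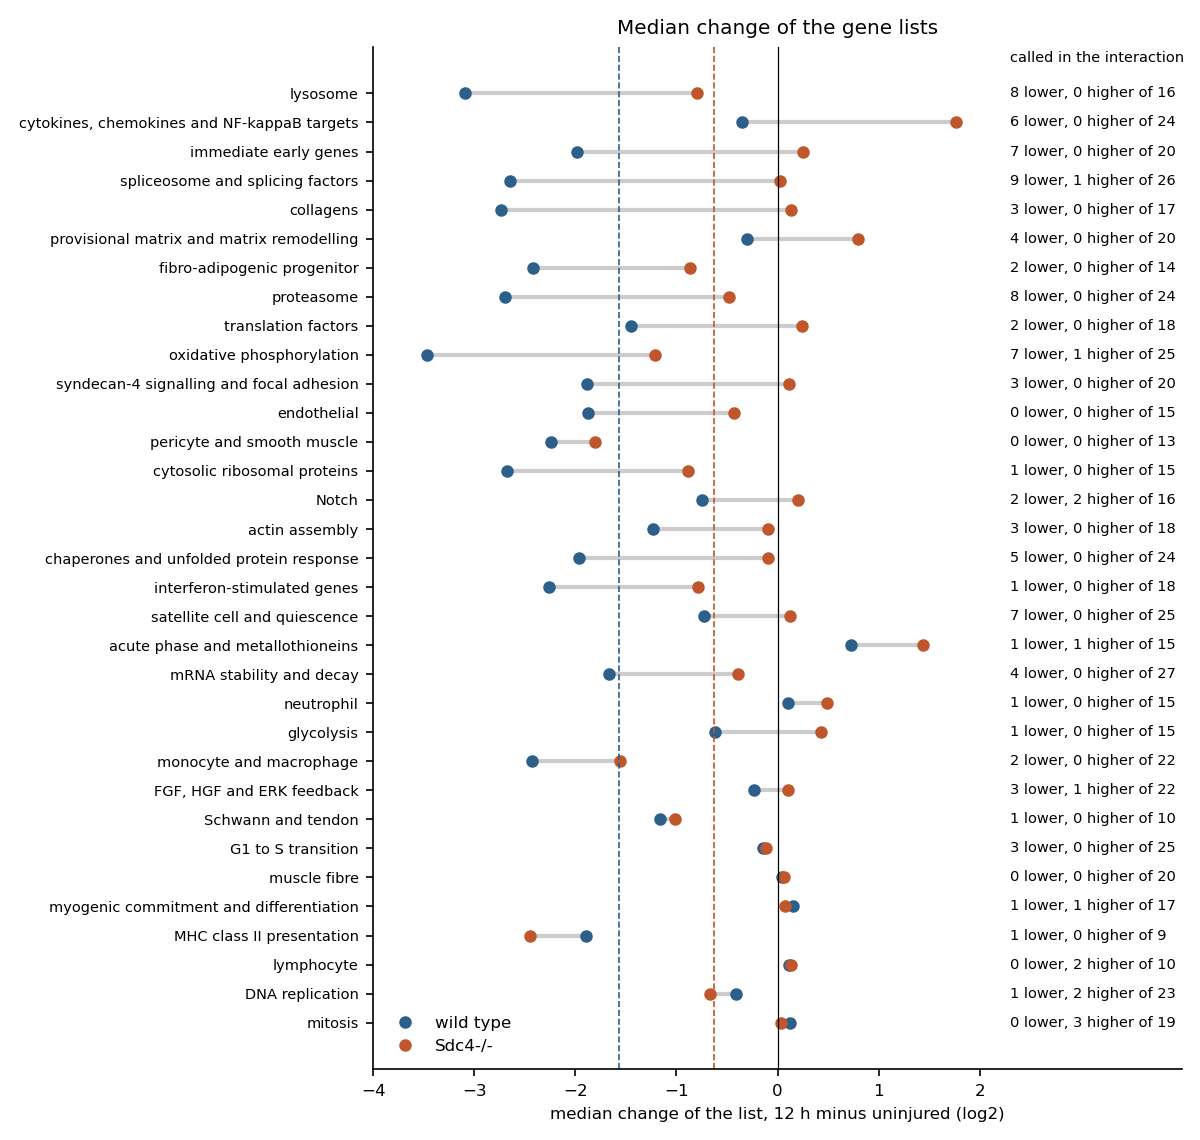
Median log2 change by 12 h of each gene list in wild type cells (blue) and Sdc4-/- cells (orange), ordered by median interaction, with the members called lower and higher in the interaction at the right. Dashed lines are the medians over all 6279 genes with a mean of at least 4, at -1.56 in wild type and -0.63 in Sdc4-/- cells; cytokines, chemokines and NF-kappaB targets have the highest Sdc4-/- median, at 1.77.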

How the data were processed

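RNA of sorted cells (5000 cell equivalents) was amplified in 2 rounds of T7 transcription and hybridized to Affymetrix MOE430v2 arrays. The authors scanned the arrays with GCOS, normalized the probes with GCRMA and deposited log2 values; versions are not given in the sources used here. The deposited values were used as they are.

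limma 3.58.1 (R 4.3.3) was fitted to 6 groups and 17 arrays with moderated variances (11 residual and 1.20 prior degrees of freedom), and p-values were adjusted by Benjamini-Hochberg over 45101 probe sets. The study's analysis of variance was followed by an unmoderated fit, a Bonferroni adjustment and its p and fold threshold as alternatives. The fit was tested on simulated data. Array number limits the precision.

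Of the probe sets 34958 had 1 gene symbol, 932 several and 9211 none; genes were named from the first kind, using the brightest probe set of a gene. Named genes were the 10 largest interactions in each orientation among opposite genes with all 3 tests called (A), the 10 largest among genes with opposite changes of at least 1 log2 unit (B), the 5 largest where the other genotype changed by under 1 (C), up to 4 called members of each list (D), and Sdc4, Sdc3 and myogenic genes always; A to C needed a group mean of at least 5. A to C also needed a called interaction. Other opposite genes were named after their values were seen. The members and lists were chosen with earlier results of these data known. Alternatives changed the arrays, moderation, weights, normalization, filters, covariates and threshold. Promoter windows came from RefSeq.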

Additional observations from a re-analysis of the deposited data

Results flagged for a closer look

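The change by 12 h differed between the genotypes by the interaction test in limma, at an adjusted p under 0.05 with the 17 arrays, for the results listed here. The probe sets that fell in wild type and rose in Sdc4-/- cells numbered 60, and those of the other orientation 27.

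Among genes opposite with all tests called the interactions were -9.49 for Il6, -8.25 for Egr3, -7.43 for Abtb2, -7.24 for Gtpbp4, -7.01 for Id2, -6.63 for Foxn2, -6.24 for Gm6377, -6.14 for Csf1, -6.09 for Csf2rb2 and -6.06 for Neat1. In the other orientation they were 3.81 for Jakmip1, 3.78 for Uqcrh, 2.84 for Ackr4, 2.61 for Kctd14 and 1.58 for Mrpl9.

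Among genes with opposite estimates the interactions were -7.78 for Efhd2, -7.54 for Odc1, -7.39 for Nab1, -7.08 for Steap4, -6.94 for Jmjd1c, -6.67 for Fndc3b, -6.51 for Ptpn12, -6.45 for Hif1a, -6.34 for Septin7 and -6.16 for Bcl2l11. In the other orientation they were 4.39 for Prcp, 4.34 for 4930432L08Rik, 4.13 for Il6ra, 3.55 for Smpdl3b, 3.53 for AA386476, 3.30 for Hmga2-ps1, 2.88 for Prpf19, 2.74 for Fam184b and 2.57 for Stimate. Prpf19 was called in 6, Smpdl3b in 12, Hmga2-ps1 in 13, Bcl2l11 in 13, Hif1a in 14 and Stimate in 15 of 23 alternatives. Jmjd1c had another probe set called with the opposite sign.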

How the results depend on the processing

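Counts are given in the order all called, wild type change higher, wild type change lower, fell in wild type and rose in Sdc4-/- cells, rose and fell, against 5002, 3029, 1973, 60 and 27. With all 18 arrays they were 592, 235, 357, 9 and 9, and with the hybridization-control covariate 280, 20, 260, 4 and 0. Bonferroni adjustment gave 146, 29, 117, 0 and 0, and values under 4 set to 4 gave 1283, 266, 1017, 33 and 4. Centring on the median of the probe sets averaging 4 or more, chosen after seeing the data, gave 23806, 22201, 1605, 285 and 215. The shift by the 75th percentile gave 3297, 1242, 2055, 422 and 50, and a further quantile normalization 3309, 1660, 1649, 83 and 12. The mean filter of 4 gave 1515 in all, 179 higher and 8 of the last kind, fitting only the 4 groups gave 3194, 1753 and 14, and the study threshold gave 1436 higher and 8 of the last kind. Without moderation 4799 were higher, and array weights left 16 of the last kind. The cause of these shifts was not tested.

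Leaving out 1 array at a time gave 3098 to 6946 called, 1650 to 4654 higher, 1448 to 2292 lower, 35 to 96 that fell and rose, and 14 to 64 that rose and fell. The lowest count came without wild type uninjured replicate 1, and the 35 and 64 came without Sdc4-/- uninjured replicate 3. One gene reversed: 2610005L07Rik was at -0.50 with the hybridization-control covariate (adjusted p = 0.90).

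The replicate numbers did not pair the samples: of 40 same-numbered pairs 2 had a correlation of deviations over 0.1 (range -0.13 to 0.17), and 6 of 17 arrays correlated best with their own number. With the replicate number as a block 4154, 2423, 1731, 55 and 25 were called.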
